A study of Equus caballus with 10 samples.

Results

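The ADAM genes encode membrane-anchored proteins with a disintegrin and a metalloprotease domain, and 10 of them, of the 29196 genes in the table, are described here in equine tenocytes: ADAM8, ADAM9, ADAM10, ADAM12, ADAM15, ADAM17, ADAM19, ADAM22, ADAM23 and ADAM33. They were found by their symbols in the deposited table, and the list was chosen from values of the same comparison that is described below, so the differences of these genes are given as a description and carry no p-value. The table holds 19 ADAM genes in all, and the other 9 are given at the end of the account of the members.

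ADAM proteases of the sheddase type cut the outer part of membrane proteins close to the cell surface, which releases growth factors, cytokines and receptors and trims adhesion molecules. They are made as inactive precursors. Many of them, but not all, lose their prodomain to furin-like convertases. Some are carried to the surface by known partner proteins, and some, but not all, are held in check by tissue inhibitors of metalloproteinases. ADAM22 and ADAM23 are members of the family that lack the catalytic residues and act as receptors for the secreted LGI proteins. In tendon and other connective tissue, shedding acts on cell adhesion, on Notch and epidermal growth factor (EGF) receptor signalling and on growth factor binding proteins.

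The cells were primary tenocytes isolated from the superficial digital flexor tendon of 5 Thoroughbred or Thoroughbred-type horses, whose single ages are not given in the sources used here, and 1 tenocyte line per donor was grown in 3D collagen gels for 14 days. Each line gave 1 library with the IRAK-4 inhibitor PF-06650833 alone (PF alone, 100 nM, added daily) and 1 library with both agents (PF + IL-1β, the same inhibitor and 17 ng/ml IL-1β, added every 3 to 4 days), so that both groups hold 5 libraries and both received the inhibitor. IRAK-4 is a kinase of the IL-1 receptor pathway. The comparison asks how these genes differ with IL-1β when the inhibitor is present, and the effect of the inhibitor itself is not part of it. The lines are cells grown out of digested tendon and were not sorted for a cell type.

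The deposited values are log2 values normalized between libraries and were taken to be variance-stabilized. On this scale a gene without reads has the value 3.433. The reads on genes, estimated from these values, ranged from 26389447 to 35749714 per library in the PF alone group and from 26735901 to 33405136 in the other group. The tenocyte markers SCX, MKX and COL1A1 were present in all 10 libraries, while TNMD, a gene of mature tenocytes, was at the value of 0 reads in all of them. SCX (log2 fold change -3.24, adjusted p = 6.11e-04 from limma) and MKX (-2.85, adjusted p = 0.00554) fell with PF + IL-1β, as did TNC, so that 3 of the 8 tested tenocyte and fibroblast markers were lower, and 6 with the donor as a block. Their summed normalized counts ranged from 922244 to 1441287 with PF alone and from 251765 to 1006121 with PF + IL-1β, and their part in the differences below was not tested. DCN, the decorin gene of the same list, was higher in 5 of 5 donors without meeting the rule (1.01, adjusted p = 0.268). None (0) of the 3 tested endothelial markers met the rule. SNAP25 rose (3.21, adjusted p = 0.00682) and was the only 1 of the 3 tested neural markers that met the rule. Of the 8 leukocyte markers, AIF1 and CD3E had no reads in any library, and PTPRC, which encodes the pan-leukocyte protein CD45, had none in the 5 libraries with PF + IL-1β and reads in 1 library with PF alone. EPCAM, an epithelial marker, had no reads in any library. In bulk samples fewer cells of a type and less RNA per cell cannot be told apart.

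All 10 ADAM genes had enough values above 0 reads to enter the fit over all genes, and 2 of them met the rule for differential expression (adjusted p below 0.05 from limma and a Log2FC, the log2 fold change between group means, of 1 or more in either direction). ADAM8 was higher and ADAM19 lower with PF + IL-1β. The rule was met by 6.68% of the 17992 tested genes, 3.11% being higher and 3.57% lower. Without the minimum fold change ADAM10 and ADAM15 were added, which made 4 members beside 15.5% of all tested genes. With the donor as a block the number was again 2, beside 8.26% of all genes. The groups did not overlap for 3 members, ADAM8, ADAM10 and ADAM19, beside 12.7% of all tested genes. For 6 members all 5 donors differed in the same direction, 3 of them higher and 3 lower, beside 32.7% of all tested genes. Since the list was made with these values known, the counts describe the list and nothing is read from them. The median Log2FC was -0.41 over the 10 members and -0.01 over all tested genes.

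**Figure D1:**
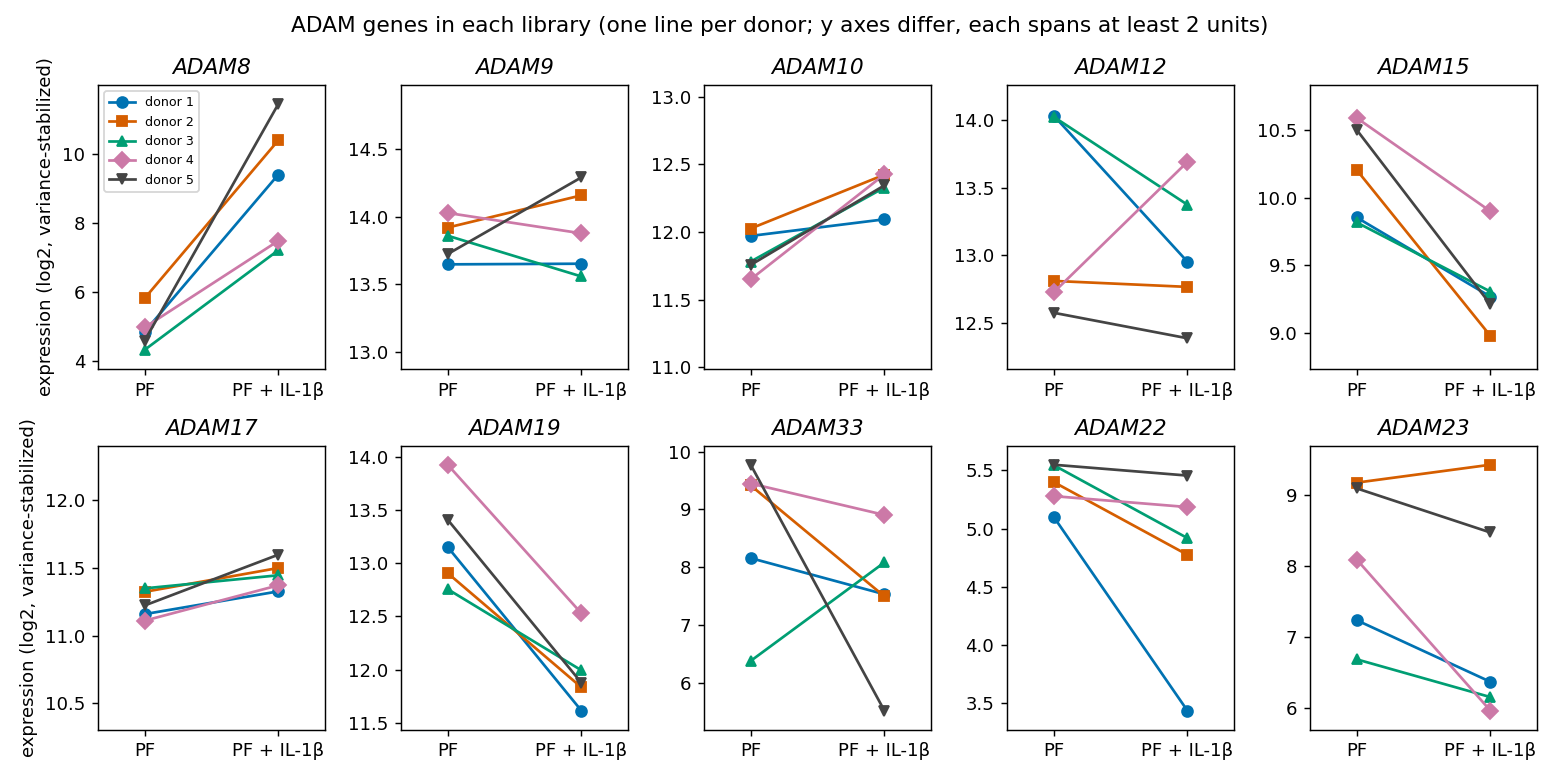
Variance-stabilized log2 expression of the 10 ADAM genes with PF alone (left of each panel) and with PF + IL-1β (right), 1 line per donor. Lines of ADAM8 go up and lines of ADAM19 go down in all 5 donors, those of ADAM10 and ADAM17 go up by less, and those of ADAM12 and ADAM33 cross.

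ADAM8 is an inducible member of the family, best known from leukocytes, where it takes part in migration through matrix. With PF alone its log2 expression in donors 1 to 5 was 4.83, 5.80, 4.31, 4.96 and 4.57. With PF + IL-1β it was 9.39, 10.38, 7.20, 7.47 and 11.44. Every library with PF + IL-1β lay above every library with PF alone, and donors 3 and 4 were the lowest with IL-1β. The Log2FC was 4.28 (standard error, SE, 0.74, n = 5 per group), with differences from 2.51 in donor 4 to 6.86 in donor 5. Variance stabilization compresses low values, and on the scale of log2(normalized count + 1) the Log2FC was 5.48. As normalized counts, ADAM8 had between 4.10 and 36.3 with PF alone and between 126 and 2748 with PF + IL-1β, which is 11.8-fold to 386-fold higher within a donor. The largest of these ratios, in donor 5, has only 7.11 normalized counts below it.

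Markers of leukocytes were looked at beside ADAM8. CD68, a lysosomal protein of macrophages that other cells also make, had a log2 expression of 6.64 ± 0.31 (SD, n = 5) with PF alone and rose to 8.34 ± 0.79 (SD, n = 5) with PF + IL-1β (adjusted p = 0.00795 from limma), and it was the only one of the 3 tested leukocyte markers that met the rule. The summed normalized counts of the 8 markers ranged from 63.4 to 1766 with PF alone and from 171 to 1943 with PF + IL-1β. CD14, a monocyte and macrophage receptor, had 1662, 309, 0, 0 and 0 normalized counts in donors 1 to 5 with PF alone and 1682, 702, 0, 410 and 1216 with PF + IL-1β. It was higher in 4 donors with PF + IL-1β and at 0 in both libraries of donor 3 (Log2FC 2.66, adjusted p = 0.340 from limma). As given above, PTPRC had no reads in any library with PF + IL-1β. The part of CD68 and CD14 in the difference of ADAM8 was not tested.

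ADAM19, also called meltrin beta, sheds neuregulins and is expressed in mesenchymal cells. Its log2 expression with PF alone was 13.15, 12.91, 12.76, 13.93 and 13.41 in donors 1 to 5. With PF + IL-1β it was 11.62, 11.83, 11.99, 12.53 and 11.88. The lowest library with PF alone lay above the highest library with PF + IL-1β, and donor 4 was highest in both groups. The Log2FC was -1.26 (SE 0.23, and 0.13 with the donor as a block). Mean normalized counts were 10009 with PF alone and 4088 with PF + IL-1β, 2.45-fold lower, and the ratio within a donor ran from 1.70-fold to 2.92-fold lower.

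ADAM12, or meltrin alpha, is the close relative of ADAM19 that is known from muscle cell fusion and from cleaving insulin-like growth factor binding proteins. Its log2 expression with PF alone was 14.03, 12.81, 14.02, 12.72 and 12.57. With PF + IL-1β it was 12.95, 12.77, 13.37, 13.69 and 12.39. The groups overlapped almost completely, and donor 4, with a difference of 0.96, went against the other 4 donors, whose differences lay between -1.08 and -0.04. The Log2FC was -0.20 (SE 0.34), and without donor 1 it was 0.02. The difference of ADAM19 lay below that of ADAM12 in 5 of 5 donors.

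ADAM10 and ADAM17 are the widely expressed sheddases, ADAM10 for Notch receptors, cadherins and the amyloid precursor protein, and ADAM17 for TNF and most EGF receptor ligands. ADAM10 was at 11.97, 12.03, 11.78, 11.65 and 11.76 with PF alone and at 12.09, 12.42, 12.33, 12.43 and 12.35 with PF + IL-1β. Its libraries with PF + IL-1β all lay above those with PF alone, by a Log2FC of 0.49 (SE 0.10), or 1.40-fold in mean normalized counts, which is below the minimum fold change of the rule. ADAM17 was at 11.16, 11.32, 11.35, 11.11 and 11.22 with PF alone and at 11.33, 11.50, 11.45, 11.37 and 11.60 with PF + IL-1β. It was higher in 5 of 5 donors, although the groups overlapped narrowly, with a Log2FC of 0.22 (SE 0.08) and a 1.16-fold ratio of mean normalized counts. Both genes varied little between the libraries of a group, with SDs between 0.10 and 0.16.

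ADAM15 carries a disintegrin domain that binds integrins, and is found in vessels, cartilage and many other tissues. It was at 9.85, 10.21, 9.82, 10.59 and 10.50 with PF alone. It was at 9.27, 8.98, 9.31, 9.90 and 9.21 with PF + IL-1β. It was lower in 5 of 5 donors, and the groups overlapped only through donor 4, whose library with PF + IL-1β lay above 2 libraries with PF alone. The Log2FC was -0.86 (SE 0.20), 1.84-fold lower in mean normalized counts, and it missed the minimum fold change. Without the donor 4 library with PF + IL-1β it just passed the minimum, so that ADAM15 then met the rule.

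ADAM9, a widely expressed member with a metalloprotease domain, did not differ in a common direction. Its log2 expression lay between 13.65 and 14.03 with PF alone and between 13.56 and 14.29 with PF + IL-1β. It was higher in 3 donors and lower in 2, with differences from -0.30 to 0.57 and a Log2FC of 0.07 (SE 0.15). Without the donor 5 library with PF + IL-1β the Log2FC was -0.02.

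ADAM33 is known from smooth muscle cells and fibroblasts of the airway. It was at 8.16, 9.42, 6.38, 9.45 and 9.77 with PF alone. It was at 7.53, 7.50, 8.08, 8.90 and 5.52 with PF + IL-1β. The donors spread widely and in both directions. Donor 5 had a difference of -4.25, donor 2 of -1.92, and donors 1 and 4 of -0.63 and -0.54, while donor 3 had a difference of 1.70. The Log2FC was -1.13 (SE 0.72), past the minimum fold change but not counted as differentially expressed. Without donor 3 it was -1.84, and without donor 5 it was -0.35, so its size rests on these donors and changed by more than 1.5 times.

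MYH11, the smooth muscle myosin heavy chain gene, moved with ADAM33. With PF alone MYH11 was at 12.54, 14.01, 10.13, 13.68 and 14.99 in donors 1 to 5, and with PF + IL-1β at 11.87, 12.24, 12.66, 13.56 and 12.22. As for ADAM33, donor 3 was lowest and donor 5 highest with PF alone, and the differences stood in the same order, from donor 5 (-2.77) over donors 2, 1 and 4 to donor 3 (2.53). Across the 10 libraries of these 5 donors Pearson's r between the genes was 0.83, a description with no test, and that between ADAM33 and DES, the other smooth muscle marker of the list, was 0.55. For ADAM23 it was 0.41 with MYH11 and 0.71 with DES. Within the groups of 5 libraries the values differed. Between ADAM33 and MYH11 r was 0.98 with PF alone and 0.65 with PF + IL-1β, and between ADAM33 and DES 0.96 and -0.36. For ADAM23 the values in the same order were 0.92 and -0.46 with MYH11, and 0.98 and 0.89 with DES. DES, the gene of desmin, fell in 5 of 5 donors (Log2FC -2.98, adjusted p = 0.00546 from limma), also in donor 3, where ADAM33 was higher. The summed normalized counts of the 2 markers ranged from 1248 to 33590 with PF alone and from 3736 to 12098 with PF + IL-1β. Their part in the values of ADAM33 was not tested. MYH11 was chosen for this comparison after its values had been seen.

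**Figure D2:**
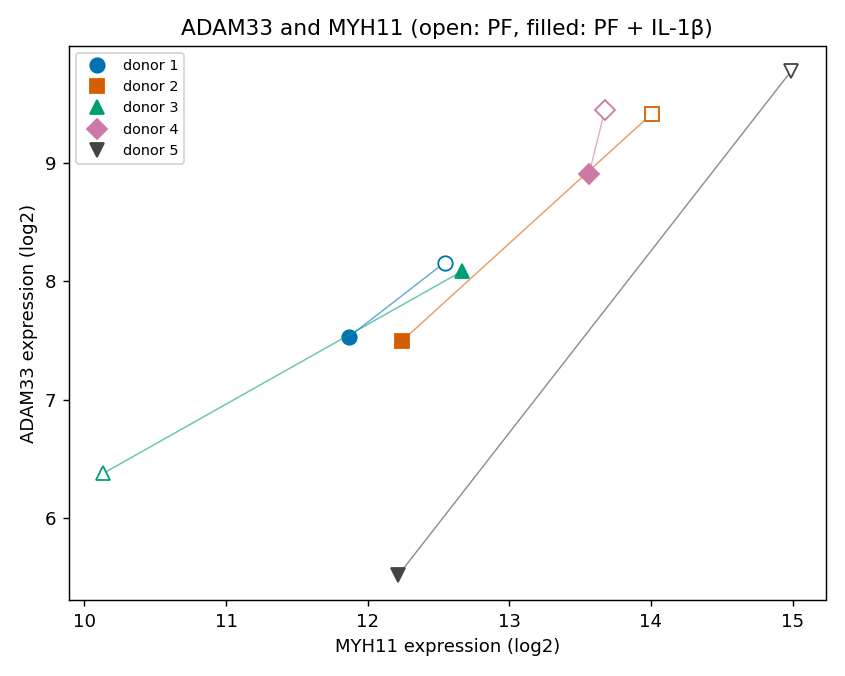
Log2 expression of ADAM33 (y axis) against MYH11 (x axis) in the 10 libraries, open symbols for PF alone and filled symbols for PF + IL-1β, with a line joining the libraries of a donor. Donor 3 moves up on both axes and the other 4 donors move down on both.

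ADAM22 and ADAM23 are the members without an active protease, and ADAM22 had few reads in all libraries. ADAM22 was at 5.10, 5.40, 5.55, 5.28 and 5.55 with PF alone and at 3.43, 4.77, 4.92, 5.18 and 5.46 with PF + IL-1β, where donor 1 had no reads. It was lower in 5 of 5 donors, with a Log2FC of -0.62 (SE 0.33). These values rest on between 16.1 and 27.7 normalized counts with PF alone and at most 24.9 with PF + IL-1β, and the rule was not met. On the scale of log2(normalized count + 1) the Log2FC was -1.33, and without the donor 1 library with PF + IL-1β, on the deposited scale, it was -0.29.

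ADAM23 was at 7.24, 9.18, 6.68, 8.09 and 9.10 with PF alone. It was at 6.37, 9.43, 6.15, 5.96 and 8.47 with PF + IL-1β. Donors 2 and 5 were the 2 highest in both groups, and donor 4 had a difference of -2.13, the largest. The Log2FC was -0.78 (SE 0.74, and 0.30 with the donor as a block), and ADAM23 was lower in 4 of 5 donors. It was -1.32 without the donor 2 library with PF + IL-1β and -0.45 without the donor 4 library with PF + IL-1β, and 3 other single libraries, those of donors 2 and 5 with PF alone and of donor 3 with PF + IL-1β, moved it to between -0.52 and -0.50. Of the 4 LGI genes, whose products bind ADAM22 and ADAM23, LGI1 had no reads in any library and none of the 3 tested genes met the rule. LGI3 was lower in 5 of 5 donors, at 7.06 ± 0.08 (SD, n = 5) with PF alone and 6.35 ± 0.37 (SD, n = 5) with PF + IL-1β, a Log2FC of -0.71 (adjusted p = 0.0371 from limma), below the minimum fold change.

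**Figure D3:**
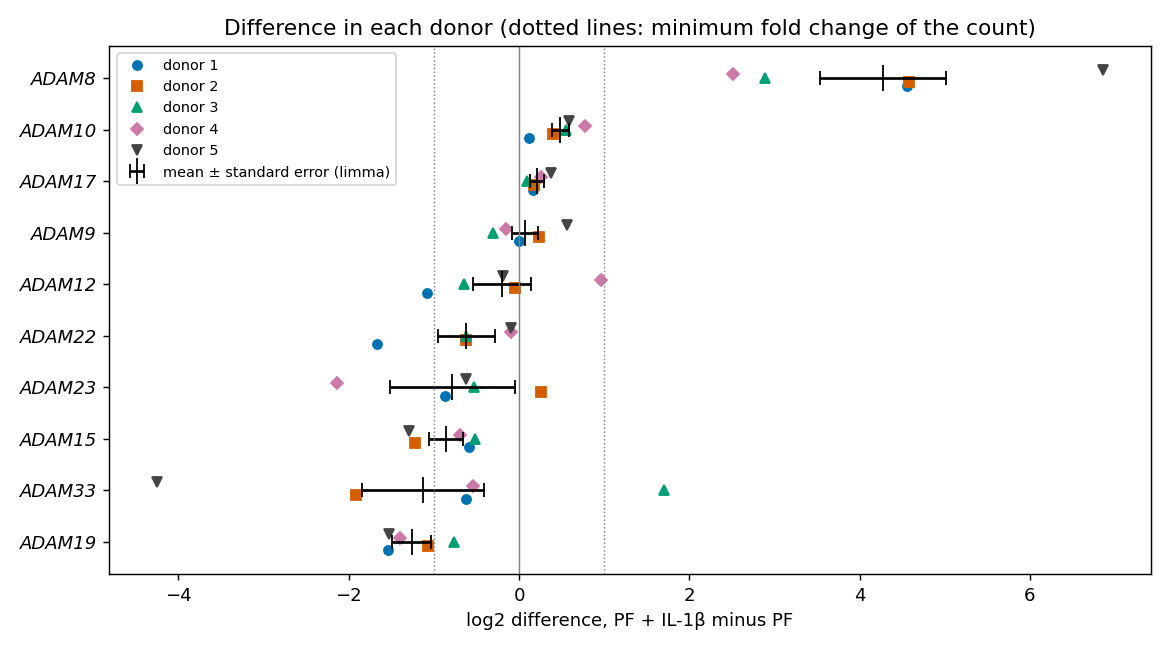
Log2 difference of PF + IL-1β minus PF alone for each ADAM gene, with 1 symbol per donor and the mean ± standard error of limma in black; dotted lines mark the minimum fold change. ADAM8, at 4.28, stands to the right, ADAM19, at -1.26, to the left, and ADAM33 has the widest spread between donors.

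How much of the variation of a gene lay between the groups and how much between the donors differed widely among the members. The groups took 77.5% of the sum of squares of ADAM10, 75.7% of ADAM8, 75.1% of ADAM19, 65.5% of ADAM15 and 56.9% of ADAM17. The donors took 81.5% of the sum of squares of ADAM23, 61.0% of ADAM12, 51.1% of ADAM9 and 49.7% of ADAM22. For these 4 genes the donor share was larger than the group share. The 2 shares are not on the same footing, since 5 donor means take up more variation by chance than 2 group means. No donor effect is therefore read from the shares alone. The rest, in neither, was 46.4% in ADAM9, 36.0% in ADAM12, 23.2% in ADAM22 and 9.15% in ADAM23. ADAM33 was the only member with most of its variation, 54.9%, in neither. The median share over all tested genes was 19.1% between groups and 45.8% between donors.

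**Figure D4:**
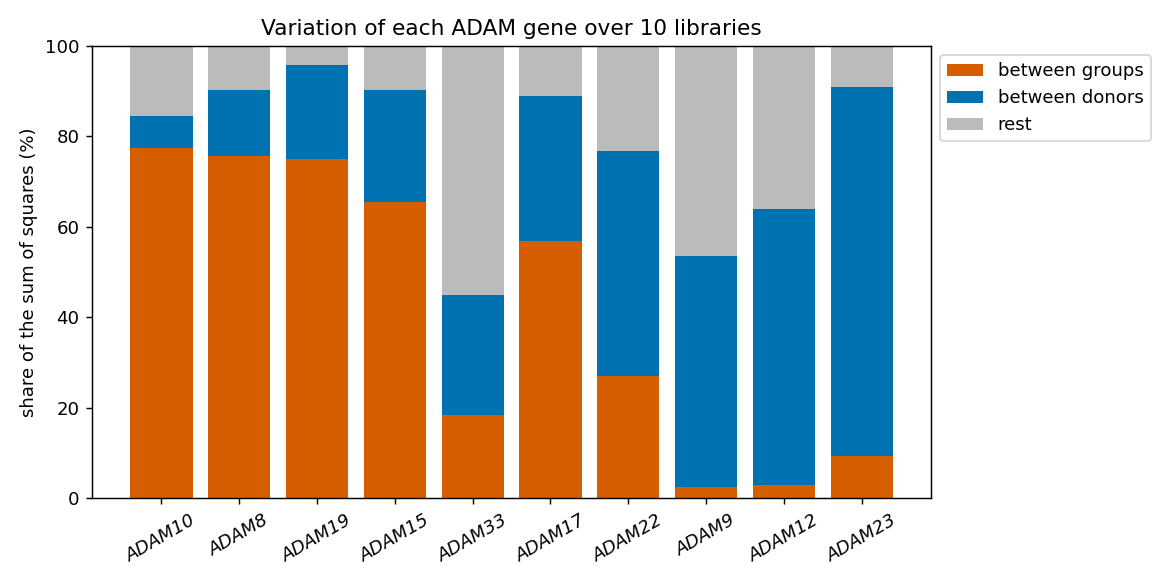
Share of the sum of squares over the 10 libraries, in percent, that lay between groups, between donors and in the rest, for each ADAM gene ordered by its donor share. The donor share goes from 6.94% in ADAM10 to 81.5% in ADAM23.

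The other 9 ADAM genes of the table had few or no reads. ADAM7, ADAM18, ADAM28, ADAM29 and ADAMDEC1 had none in any library, and ADAM30 had reads in 3 libraries and was not tested. ADAM11, ADAM20 and ADAM32 were tested, with Log2FC values of -0.03, 0.24 and 0.01 and adjusted p-values from limma of 0.948, 0.398 and 0.993, and none met the rule.

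To set the sheddases beside the genes they work with, 7 lists were made of their maturation and transport partners, inhibitors, substrates, LGI ligands and the gamma-secretase that cuts what shedding leaves behind. Of 91 listed genes 80 were tested, and 17 met the rule, 10 higher and 7 lower with PF + IL-1β. With the replicate block 23 met it. The share of 21.2% stands beside 6.68% of all tested genes, and the median Log2FC was 0.14. The lists were made from general knowledge, with earlier results of these data known, and were not tested as sets.

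Of the 20 tested maturation and transport partners 3 met the rule, all lower with PF + IL-1β. PCSK6, a convertase of the furin family, fell in log2 expression from 9.83 ± 0.43 (SD, n = 5) to 7.88 ± 0.76 (SD, n = 5) (Log2FC -1.95, SE 0.34, adjusted p = 0.00396 from limma). TSPAN33, a tetraspanin of the group that takes ADAM10 to the surface, fell from 8.52 ± 0.54 to 7.22 ± 0.27 (-1.30, adjusted p = 0.00681). SNX9, a sorting nexin that binds the tails of ADAM9 and ADAM15, fell from 13.94 ± 0.30 to 12.86 ± 0.31 (-1.08, adjusted p = 0.00303). All 3 were lower in 5 of 5 donors with no overlap of the groups, but SNX9 lies near the minimum fold change and missed it, at -0.97, without the donor 5 library with PF + IL-1β, and at -0.99 without donor 2. FURIN (Log2FC 0.21, adjusted p = 0.380 from limma) and RHBDF1, which encodes the ADAM17 partner iRhom1 (-0.16, adjusted p = 0.493), did not meet the rule. With the donor as a block PCSK5 (1.08, adjusted p = 0.0238) and TSPAN15 (-1.02, adjusted p = 0.0239) were added. PACS2 (-0.62, adjusted p = 0.0113 from limma without the block) and SH3PXD2A (-0.59, adjusted p = 0.0488) were lower, below the minimum fold change.

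Among the 6 inhibitors TIMP1, which inhibits ADAM10, was the only one that met the rule. It rose from 13.97 ± 0.58 (SD, n = 5) to 15.28 ± 0.82 (SD, n = 5), a Log2FC of 1.31 (SE 0.39, adjusted p = 0.0450 from limma, and 0.00445 with the replicate block), and was higher in 5 of 5 donors. The call without the block is close to the threshold: it was lost in 9 of the 10 fits that left out 1 library, with adjusted p-values over the 10 fits between 0.00866 and 0.106, and was kept without the donor 4 library with PF + IL-1β. With the replicate block it was lost in 0 of the 5 fits that left out 1 donor (largest adjusted p = 0.0207 from limma). TIMP3, the main physiological inhibitor of ADAM17, was at 10.65 ± 1.13 with PF alone and at 10.18 ± 0.77 with PF + IL-1β, and the groups overlapped (Log2FC -0.47, adjusted p = 0.608).

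Of the 8 tested ligands of the EGF receptor family, which sheddases release from the membrane, 3 rose with PF + IL-1β. NRG1, the gene of neuregulin 1, was at 4.14, 4.55, 4.06, 4.77 and 4.20 with PF alone and at 9.99, 10.26, 6.92, 7.08 and 10.83 with PF + IL-1β, a Log2FC of 4.67 (SE 0.73, adjusted p = 0.00215 from limma). It had only 2.08 to 10.0 normalized counts with PF alone. Over the alternative settings that kept all libraries its Log2FC lay between 4.65 and 6.67. EREG, the gene of epiregulin, rose from 8.50 ± 1.00 (SD, n = 5) to 12.91 ± 1.45 (SD, n = 5), a Log2FC of 4.41 (SE 0.67, adjusted p = 0.00182). In NRG1 and EREG, as in ADAM8, the 2 smallest differences were those of donors 3 and 4. EPGN, the gene of epigen, rose from 4.51 ± 0.90 to 6.33 ± 0.88 (Log2FC 1.82, adjusted p = 0.0310), and lost the call in 5 of the 10 fits that left out 1 library. With the replicate block EPGN lost it in 0 of the 5 fits that left out 1 donor. It had at most 25.5 normalized counts with PF alone, and on the scale of log2(normalized count + 1) its Log2FC was 3.29. HBEGF, the gene of heparin-binding EGF, was at 9.79 ± 0.58 and 9.99 ± 0.43 (Log2FC 0.21, adjusted p = 0.686).

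Of the 11 tested cytokine and receptor substrates 2 met the rule. GHR, the growth hormone receptor, fell from 9.48 ± 0.35 (SD, n = 5) to 8.16 ± 0.25 (SD, n = 5), a Log2FC of -1.32 (SE 0.19, adjusted p = 0.00136 from limma). TNFSF11, which encodes the membrane-bound cytokine RANKL, rose from 6.37 ± 1.19 to 8.42 ± 1.01 (2.05, adjusted p = 0.0425), and lost the call in 7 of the 10 fits that left out 1 library. When 1 donor was left out with the replicate block, the call was lost in 0 of 5 fits. With the replicate block KITLG, the gene of stem cell factor, was added, at 9.07 ± 0.75 with PF alone and 10.87 ± 1.31 with PF + IL-1β (adjusted p = 0.00326). Without the minimum fold change, and without the block, 5 of the 11 had an adjusted p below 0.05 from limma. The genes this added were IL1R2 (0.79) and TNFRSF8 (0.94), which were higher, and TNFRSF1A (-0.37), which was lower. IL1R2 had at most 4.70 normalized counts with PF alone. TNF, the substrate after which ADAM17 was first named, could not be tested, as 1 of the 10 libraries held reads of it, and IL6R was at 7.43 ± 0.28 and 7.59 ± 0.50 (0.16, adjusted p = 0.727).

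The list of adhesion, Notch and other substrates held 8 genes that met the rule, of 26 tested, 5 higher and 3 lower. IGFBP3 and IGFBP5, insulin-like growth factor binding proteins that ADAM12 can cleave, rose by Log2FC values of 4.25 (SE 1.00, adjusted p = 0.0160 from limma) and 1.70 (SE 0.51, adjusted p = 0.0457). The gene of the Notch ligand DLL1 rose (2.39, adjusted p = 0.00773), while that of the Notch ligand JAG1 fell (-1.68, adjusted p = 0.0282). ICAM1, a leukocyte adhesion molecule, rose (1.87, adjusted p = 0.0145), and so did APP, the amyloid precursor protein (1.03, adjusted p = 0.0102). L1CAM, a neural adhesion molecule (-1.67, adjusted p = 0.00387, and -2.51 on the scale of log2(normalized count + 0.5)), and CDH1, the gene of E-cadherin (-2.22, adjusted p = 0.0136), fell. All 8 differed in the same direction in 5 of 5 donors. ICAM1 lost the call without donor 2, DLL1 without donor 1, CDH1 without donor 1 or 5, and IGFBP3 without donor 1, 2 or 5. IGFBP5 and JAG1 each lost it in 7 of the 10 fits that left out 1 library. APP lost it in 2 of these, at 0.92 without the donor 5 library with PF alone and at 0.88 without the donor 4 library with PF + IL-1β. In the 5 fits that left out 1 donor with the replicate block, ICAM1, DLL1, CDH1 and IGFBP3 lost the call in 0. JAG1 lost it in 3 of those 5 fits, and IGFBP5 and APP each in 2. With the replicate block VCAM1 (2.57, adjusted p = 8.31e-04), PRNP (1.37, adjusted p = 0.0182) and NCAM1 (-1.22, adjusted p = 0.00574) were added. Without the minimum fold change, and without the block, 13 of the 26 genes had an adjusted p below 0.05 from limma. The genes this added were CD44 (-0.83), NOTCH2 (-0.85), AXL (-0.59) and DSG2 (-0.88), which were lower, and SDC1 (0.54), which was higher. The median Log2FC of the list was -0.21.

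None of the 6 gamma-secretase genes met the rule. PSENEN (Log2FC 0.46, adjusted p = 0.00738 from limma) and APH1B (0.51, adjusted p = 0.0205), which encode small subunits of the complex, were higher in 5 of 5 donors and below the minimum fold change.

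**Figure D5:**
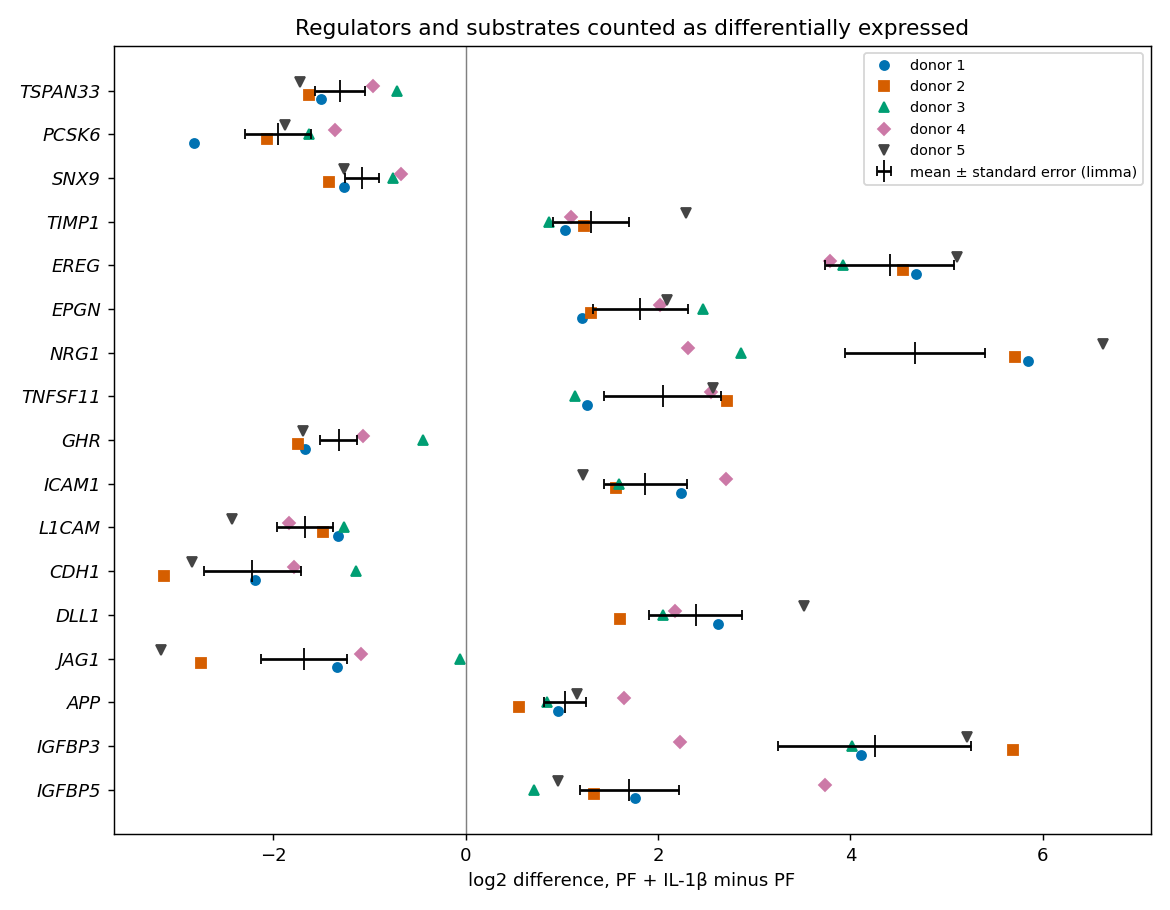
Log2 difference of PF + IL-1β minus PF alone for the 17 regulators and substrates that met the rule, with 1 symbol per donor and the mean ± standard error of limma in black. NRG1, EREG and IGFBP3 have the highest means and CDH1 and PCSK6 the lowest, and no donor crosses the line at 0.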

How the data were processed

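The processed table of this series holds 10 libraries of equine tenocytes, and all 10 columns were used. Per the paper's methods and the submitters' processing notes, the authors checked reads with FastQC (version 0.11.9), quantified them on the EquCab3.0 transcriptome with Salmon (version 1.8) with correction for GC bias, imported them with tximport and used DESeq2 (version 1.36). The authors deposited log2 values whose transformation is not named in the sources used here. It was taken to be variance stabilization. All libraries share a lowest value of 3.433, which this form gives, but that value alone does not identify the form. The values are normalized between libraries, so raw reads were not used here, and normalized counts were obtained by inverting the assumed transformation. They are approximate, and the reads per library were estimated from the spacing of the lowest values. These estimates lie between 26389447 and 35749714 reads per library, and values of a few counts carry large counting error.

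The 2 groups were compared with limma 3.58.1 in R 4.3.3, allowing the variance to follow the mean, for the 17992 genes that exceeded the value of 0 reads in 5 or more libraries. No donor term was used in this main fit, as the study's methods name none, so it ignores that both groups share the same lines. P-values were adjusted by the Benjamini-Hochberg method over all tested genes. Every adjusted p is from the main fit unless the replicate block, which takes up the pairing by line, is named. The replicate number stands for the tenocyte line, and so for the donor, named in the sample titles. Libraries of the same line deviated together from their group means, with correlations between 0.367 and 0.506 over 5 pairs, against -0.266 to 0.0869 over 20 pairs of different lines. Subtracting the group means pulls the values of different lines the opposite way from those of the same line. The 2 ranges are therefore not independent. The fit was also run on simulated data without differences between donors, so that run cannot show how shared donors affect it.

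The members and lists were chosen with earlier results of these data known. The genes named are the members, all other ADAM genes, the listed genes that met the rule and the 3 genes most correlated with ADAM8 and with ADAM19, and others are named with their values as single genes chosen after these were seen. Symbols of all 10 members were found in a RefSeq table of another horse assembly. It holds no sequences, and no positions or lengths were used. Levels are therefore not compared between genes. Alternatives were the block, filters, scales, normalizations, variance models, thresholds and left-out libraries or donors.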

Additional observations from a re-analysis of the deposited data

Results flagged for a closer look

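In 54 groups of 5 libraries, those of the 10 ADAM genes and the 17 regulators and substrates that met the rule, 1 library lay far from the other 4, where chance gives about 2.7. CDH1, the gene of the ADAM10 substrate E-cadherin, was at 10.64 in donor 4 with PF alone, against 9.11 to 9.47 in the other 4 donors.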

How the results depend on the processing

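ADAM8 and ADAM19 met the rule under every one of the 33 alternatives (a description, since these values chose the list), and the other members kept their direction with 2 exceptions. ADAM9 had values from -0.052 to 0.16 when a library or donor was omitted, and turned without the donor 5 library with PF + IL-1β (-0.02) and without donor 5 (-0.052). ADAM12 had values from -0.49 to 0.021, and turned without the donor 1 library with PF alone (2.2e-04) and without donor 1 (0.021). With these donors omitted the values were the same with the replicate block, and with all donors kept the block turned neither. The count of members was 2 to 3 with a library or donor omitted, and 4 without a minimum fold change, with or without the replicate block. The count over all genes, 1202, became 719 at an adjusted p below 0.01, 2782 without a minimum fold change and 3996 when the block was added to that, a combination chosen after seeing the data. It lay between 762 and 1422 with a library or donor omitted, the lowest being 762 without donor 1, 777 without donor 5 and 790 without donor 2, and reached 1677 with the block. The paper, with DESeq2, gives a larger count than 1202 for this comparison. Its own number of 1202 belongs to another comparison, PF-06650833 plus IL-1β against IL-1β alone, so the equal number is not a match. For the regulators and substrates the count of 17 became 8, 30 and 40 under the first 3 changes and lay between 8 (without donor 1) and 19, or up to 24 with the block. It was 9 without donor 2, 10 without donor 5 and 11 without the donor 5 library with PF + IL-1β. The replicate block alone gave 1486, 2 and 23. Of the 17 genes 11 lost the call under at least 1 alternative and 0 turned. The cause was not tested. The ratios of ADAM8, the values of ADAM22 and those of NRG1 and EPGN with PF alone are limited by their few counts.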

Other observations

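By Pearson's r over the 10 libraries, the genes most like ADAM8 among the 13865 tested genes with a symbol were IL4R, a chain of the interleukin-4 receptor (0.992), TMBIM1 (0.991) and NPL (0.990), with Log2FC values of 1.11, 1.06 and 1.19, which are much smaller than the 4.28 of ADAM8. The genes most like ADAM19 were HEATR5A (0.992), ADAMTS6, a secreted protease of the related ADAMTS family (0.987), and CAMK2D, a calmodulin-dependent kinase (0.986), with Log2FC values of -0.57, -2.48 and -1.99. These correlations are a description over libraries that share donors and groups, and carry no test. Among the members themselves the highest correlation was that of ADAM15 and ADAM19 (0.94 over the 10 libraries), which were highest in donor 4 in both groups.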
